A study of Mus musculus with 18 samples.

Results

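The response of WT splenic B cells to lipopolysaccharide (LPS) was measured by comparing the 3 libraries of WT cells given LPS with the 3 libraries of WT cells left resting, which are 6 of the 18 libraries of the series. All 28096 genes of the files were considered, and the 14161 that passed a filter on low counts were tested. B cells were purified from the spleens of C57BL/6 N mice of at least 8 weeks with a magnetic isolation kit, cultured for 4 hr with 20 μg/mL LPS from K12 E. coli or without stimulation, and their polyadenylated RNA was sequenced. Wells of one culture were pooled before the RNA was purified, and the series design calls the 3 samples of a group biological replicates. The other libraries, used below only where stated, came from WT cells whose B cell receptor was crosslinked for 4 hr with anti-IgM F(ab)2 at 10 μg/mL, and from the same 3 conditions in Ubqln1-/- (KO) cells, whose mice carry a germline deletion of exon 2 of Ubqln1.

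LPS is the outer membrane lipid of Gram-negative bacteria and is bound on the B cell surface by TLR4 with its partner MD-2. The adaptor MyD88 links the receptor to NF-kB and MAP kinases, which switch on inflammatory genes and their own inhibitors, and the adaptor TRIF links it to IRF3 and type I interferon, whose receptor in turn switches on the interferon-stimulated genes. In mouse B cells LPS is also a mitogen, so that a resting cell leaves quiescence, grows, and enters the cell cycle without antigen.

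The promoters of 7 genes that rose are shown to show the letters searched for below. The 7 were chosen after their values were seen. They are the 250 bases before the annotated start of each gene, read 5′ to 3′ on the gene's strand from the RefSeq annotation of GRCm38.p6, and the capitals mark matches on either strand to 1 motif. For Cxcl10 (chr5:92348890-92349139, minus strand), Ifit1 (chr19:34640639-34640888, plus strand), Isg15 (chr4:156200819-156201068, minus strand) and Rsad2 (chr12:26456453-26456702, minus strand) the motif is the core of the interferon-stimulated response element (ISRE), searched as GAAANNGAAA. For Nfkbia (chr12:55492648-55492897, minus strand) and Tnfaip3 (chr10:19015411-19015660, minus strand) it is the NF-kB consensus, and for Nop2 (chr6:125131633-125131882, plus strand) it is the E-box CACGTG.
Cxcl10: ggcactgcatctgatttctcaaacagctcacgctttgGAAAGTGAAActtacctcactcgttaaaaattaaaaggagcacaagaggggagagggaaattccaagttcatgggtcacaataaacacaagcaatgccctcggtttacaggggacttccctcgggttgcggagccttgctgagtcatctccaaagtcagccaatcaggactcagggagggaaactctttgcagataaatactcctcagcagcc
Ifit1: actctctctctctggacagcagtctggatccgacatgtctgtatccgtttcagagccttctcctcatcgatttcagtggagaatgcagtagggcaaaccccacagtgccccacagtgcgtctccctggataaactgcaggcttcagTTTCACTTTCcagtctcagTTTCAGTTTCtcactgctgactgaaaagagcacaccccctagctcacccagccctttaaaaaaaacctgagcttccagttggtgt
Isg15: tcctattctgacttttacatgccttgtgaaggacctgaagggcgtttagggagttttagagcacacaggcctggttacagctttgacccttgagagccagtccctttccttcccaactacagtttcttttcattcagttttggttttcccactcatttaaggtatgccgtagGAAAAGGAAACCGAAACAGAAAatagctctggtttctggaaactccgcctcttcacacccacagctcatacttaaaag
Rsad2: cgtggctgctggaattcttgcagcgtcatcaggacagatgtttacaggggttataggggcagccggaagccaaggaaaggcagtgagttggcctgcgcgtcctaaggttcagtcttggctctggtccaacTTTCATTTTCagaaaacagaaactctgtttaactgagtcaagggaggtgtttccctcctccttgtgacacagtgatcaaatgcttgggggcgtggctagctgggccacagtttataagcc
Nfkbia: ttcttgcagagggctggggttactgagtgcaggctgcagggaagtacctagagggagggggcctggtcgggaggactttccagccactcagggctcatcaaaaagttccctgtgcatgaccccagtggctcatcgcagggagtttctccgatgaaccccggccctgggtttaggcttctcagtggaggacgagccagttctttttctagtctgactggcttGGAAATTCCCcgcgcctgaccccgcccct
Tnfaip3: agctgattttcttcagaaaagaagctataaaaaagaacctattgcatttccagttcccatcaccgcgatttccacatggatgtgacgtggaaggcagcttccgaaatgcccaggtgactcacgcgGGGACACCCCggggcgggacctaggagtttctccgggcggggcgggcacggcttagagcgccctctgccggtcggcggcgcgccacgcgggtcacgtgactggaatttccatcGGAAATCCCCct
Nop2: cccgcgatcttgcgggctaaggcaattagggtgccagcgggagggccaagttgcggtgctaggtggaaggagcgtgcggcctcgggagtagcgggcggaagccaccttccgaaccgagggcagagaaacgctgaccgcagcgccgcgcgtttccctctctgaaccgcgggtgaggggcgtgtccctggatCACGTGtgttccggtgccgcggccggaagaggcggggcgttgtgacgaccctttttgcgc

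In the 300 bases from 250 before to 50 after the start, the ISRE core was found for 388 of the 10067 tested genes that had a promoter in the table (3.85%), and for 20 of 37 interferon-stimulated genes (54.1%). The NF-kB consensus was found for 6.13% of those tested genes and for 9 of 19 genes of the NF-kB list (47.4%). The E-box was found for 11.8% of those tested genes and for 13 of 51 ribosome biogenesis genes (25.5%). Of the 192 genes that rose with LPS past the study's thresholds, defined below, 131 had a promoter sequence. Among these 131, 10.7% held the ISRE core, 11.5% the NF-kB consensus and 13.0% the E-box. Overlapping matches, such as the 3 in Isg15, were counted once per gene, and Cxcl10 also holds a match to the NF-kB consensus. A match is a run of letters and was not tested as a binding site.

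The 3 WT LPS libraries held 28590363 to 41072854 counts and the 3 WT resting libraries 15368941 to 24725416, so that every LPS library was deeper than every resting one. The first principal component of log2 CPM (counts scaled to a common library total with TMM factors) over the 14161 tested genes held 75.0% of the variance and separated the conditions, and the second, with 12.6%, ordered the libraries by replicate number in both. B cell markers dominated both conditions, with a summed level of 19650 to 21240 CPM in resting and 17800 to 19780 CPM in LPS libraries over 12 genes. The T cell markers summed to 59.9 to 183 CPM, mostly Cd2 and Lck, with Cd3e, Cd3d and Cd3g at or near 0, and the neutrophil markers summed to under 1 CPM.

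**Figure D1:**
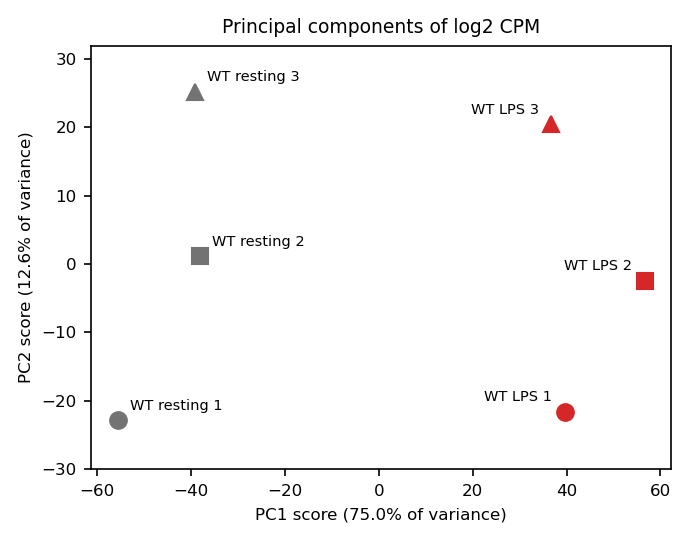
Scores of the 6 libraries on the first (x axis) and second (y axis) principal components of log2 CPM over the tested genes, red for LPS, grey for resting, with circles, squares and triangles for replicates 1, 2 and 3. LPS libraries lie at 36.69 to 56.66 and resting libraries at -55.63 to -38.15 on the first component, while replicates 1 of both conditions lie lowest and replicates 3 highest on the second.

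By edgeR's quasi-likelihood test, 8672 of 14161 genes differed between LPS and resting cells at an adjusted p under 0.05 (61.2%), 4417 of them higher with LPS (31.2%) and 4255 lower (30.0%). These shares are the background for every list below, where "rose" and "fell" mean an adjusted p under 0.05. Many changes were small, since 46.5% of the called genes differed by under 1.5-fold and the median log2 fold change of all tested genes was -0.01. A log2 fold change over 1 in size left 2234 genes (15.8%), 1110 higher (7.84%) and 1124 lower (7.94%). At the thresholds the study used, a log2 fold change over 2 in size with an adjusted p under 0.001, 255 genes remained (1.8%), of which 192 rose (1.36%) and 63 fell (0.445%). Single libraries moved the count of those that fell, to 40 without the second LPS library, 42 without the first resting library and 95 without the third LPS library. All 3 LPS libraries lay above all 3 resting libraries for 31.8% of tested genes and below them for 30.5%. With every library thinned to the smallest total, 7940 genes were called, and 223 at the study's thresholds.

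The 4 largest rises among genes with a mean of at least 10 CPM in either condition were those of Cxcl10, Ifit1, Isg15 and Rsad2, all induced by interferon. Of 50 interferon-stimulated genes listed 48 passed the filter on low counts, of which 41 rose, 3 fell and 4 did not pass the test, against a background of 31.2% and 30.0%, and the median log2 fold change was 1.28. Genes low at rest can pass the filter through the group where they are high. With at least 10 counts required in every library, 40 of these genes were tested and 33 rose, against 3975 of all 12230 genes tested that way. Cxcl10, a chemokine induced by interferon and NF-kB that draws activated T cells, was at 0.128, 0.390 and 0.846 CPM in the resting libraries and 28.9, 37.0 and 51.6 CPM with LPS. The groups were far apart, and its log2 fold change of 6.36 ± 0.36 (± SE here and below) had an adjusted p of 1.67e-09, and was 7.06 without the third resting library. Ifit1, which binds viral RNA that lacks host cap methylation, went from 0.447, 0.779 and 0.697 CPM to 40.9, 30.4 and 26.4 CPM (5.61 ± 0.41, adjusted p = 1.35e-08). Isg15, a ubiquitin-like modifier, went from 2.68, 2.92 and 2.84 CPM to 70.8, 58.5 and 39.4 CPM (4.31 ± 0.29, adjusted p = 5.95e-09). Oasl1, an inhibitor of Irf7 translation, varied little among libraries, at 9.65, 9.39 and 11.6 CPM in resting cells and 142, 142 and 144 CPM with LPS (3.80 ± 0.17, adjusted p = 8.21e-11).

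Several antiviral genes varied more among the LPS libraries. Rsad2, which encodes viperin, was at 0.639, 0.779 and 0.896 CPM in resting cells and 19.6, 8.59 and 16.8 CPM with LPS (4.25 ± 0.31, adjusted p = 1.42e-08). Ifit3 was at 1.28, 1.40 and 1.64 CPM and 28.7, 9.48 and 22.8 CPM (3.80 ± 0.45, adjusted p = 2.03e-06), although its near-identical copy Ifit3b can share its reads. Irf7, the factor that amplifies interferon production, was at 13.6, 13.2 and 15.4 CPM and 75.1, 32.5 and 61.2 CPM (2.00 ± 0.25, adjusted p = 3.33e-06). In all 3 genes the second LPS library was the lowest of the LPS libraries yet above every resting one, and it was the lowest LPS library for 42 of the 48 interferon-stimulated genes. Without it all 3 still rose. The sensor Ifih1 (MDA5) rose by 3.61 ± 0.30, and the GTPases Mx1 and Mx2 by 3.06 ± 0.34 and 3.24 ± 0.32. The members that fell were Psmb8 (-0.59 ± 0.10), Psmb9 (-0.47 ± 0.11) and Tap1 (-0.25 ± 0.08), which serve the immunoproteasome and peptide transport for MHC class I. Tap1 lost its call without the second LPS library (adjusted p = 0.0985). The interferon genes themselves were barely detected. Ifnb1 had 0 counts in all resting libraries and 0, 5 and 3 in the LPS libraries, and Ifna4, one of a family of near-identical genes, was at 0.0639, 0 and 0.0996 CPM and 0.969, 1.37 and 0.501 CPM. Ifng fell, from 2.30, 1.48 and 0.946 CPM to 0.710, 0.152 and 0.179 CPM (-2.17 ± 0.51, adjusted p = 0.00147), and by more without the first LPS library (-3.19).

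**Figure D2:**
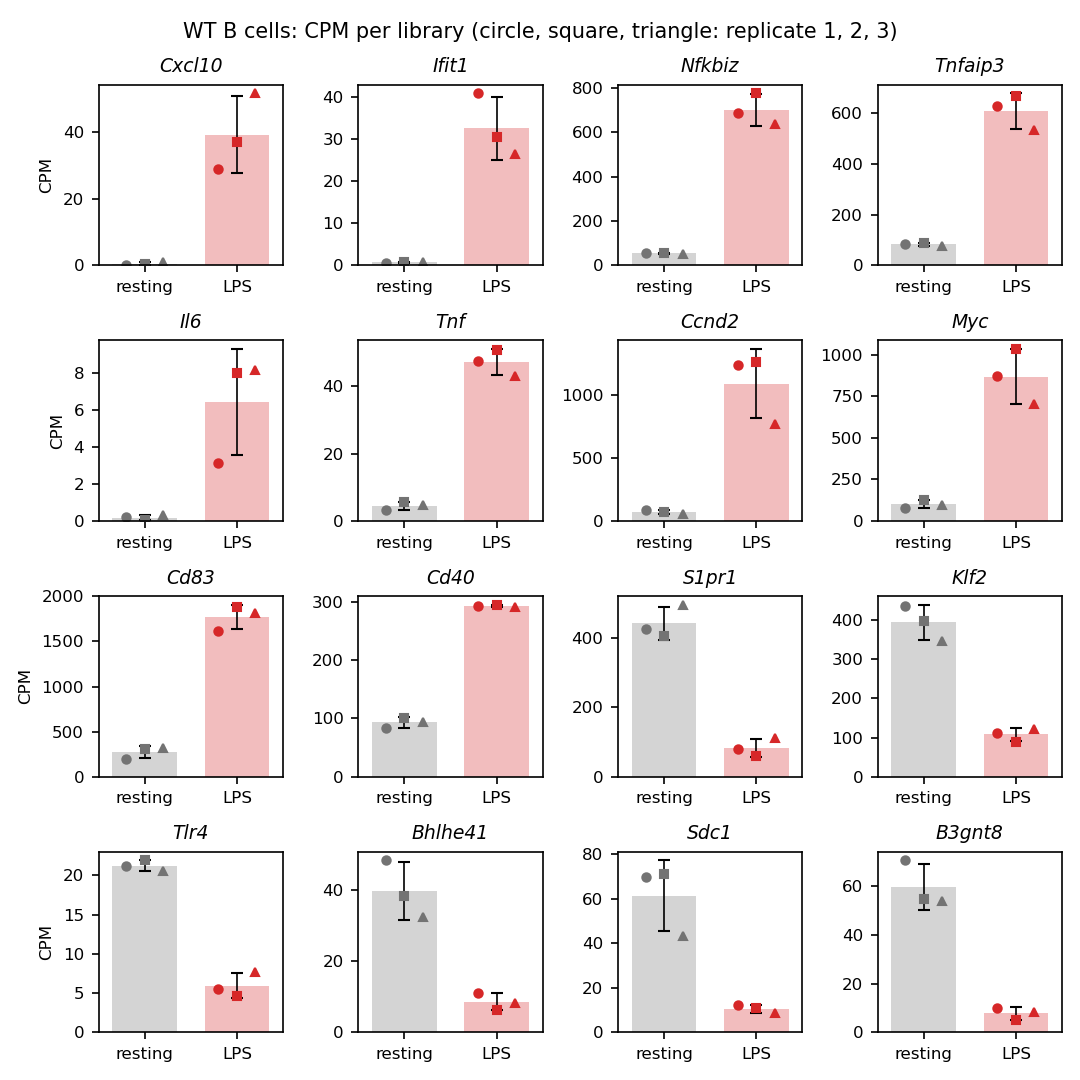
CPM of 16 genes in each WT resting (grey) and WT LPS (red) library, with bars for the mean of 3 libraries, error bars for the SD, and circles, squares and triangles for replicates 1, 2 and 3. In all 16 genes the libraries of the conditions do not overlap, with the first 10 genes higher and the last 6 lower with LPS.

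Genes of the NF-kB pathway rose together with its inhibitors. Of 23 measured, 18 rose, 3 fell and 2 did not pass the test, with a median log2 fold change of 0.91. The 3 that fell were the kinase NIK, Map3k14 (-0.58 ± 0.11), the IKK subunit Ikbkg (-0.29 ± 0.05) and the deubiquitinase Cyld (-0.23 ± 0.06). Nfkbiz, the nuclear coactivator IκBζ needed for secondary inflammatory genes, had the smallest adjusted p of all genes, going from 53.3, 56.8 and 49.3 CPM to 687, 776 and 636 CPM (3.72 ± 0.11, adjusted p = 2.14e-12). Tnfaip3, the deubiquitinase A20 that switches the pathway off, went from 83.2, 87.9 and 74.7 CPM to 629, 667 and 532 CPM (2.89 ± 0.10, adjusted p = 6.52e-12). Nfkbia, the inhibitor IκBα, went from 195, 222 and 194 CPM to 775, 744 and 668 CPM (1.84 ± 0.07, adjusted p = 4.92e-11). Replicates of these 3 genes differed little next to the distance between conditions. Among the subunits Nfkb1 rose by 1.60 ± 0.10, Rel by 1.28 ± 0.13, Nfkb2 by 1.20 ± 0.08 and Relb by 0.83 ± 0.07, while the adaptor Traf1 rose by 2.47 ± 0.18, the survival ubiquitin ligase Birc3 by 1.00 ± 0.08 and the atypical inhibitor Bcl3 by 0.91 ± 0.11. Hivep1, a zinc finger protein that binds NF-kB motifs, was also among the rises with the smallest p, at 127, 136 and 144 CPM and 412, 432 and 401 CPM (1.61 ± 0.07, adjusted p = 4.92e-11). Another was Marcksl1, an actin-binding PKC substrate, at 41.0, 59.8 and 50.7 CPM and 415, 391 and 362 CPM (2.94 ± 0.11, adjusted p = 2.47e-11).

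The LPS receptor moved the other way from its targets. Tlr4 was at 21.1, 21.9 and 20.5 CPM in resting cells and fell to 5.59, 4.57 and 7.69 CPM with LPS (-1.84 ± 0.18, adjusted p = 2.30e-07). Over the list of receptor, adaptors and feedback genes 11 of 26 rose, 8 fell and 7 did not pass the test, with a median log2 fold change of 0.06. Inhibitors of the receptor were among those that fell, namely Sigirr (-1.31 ± 0.13) and Irak3 (-0.73 ± 0.17), as did the receptor-proximal Irak2 (-0.67 ± 0.09). Ikbke, the kinase IKKε that phosphorylates interferon regulatory factors, rose from 13.7, 17.3 and 17.1 CPM to 60.7, 63.2 and 52.5 CPM (1.87 ± 0.11, adjusted p = 3.19e-09). Ticam2, the bridge between TLR4 and TRIF, rose by 1.61 ± 0.24 (adjusted p = 2.42e-05).

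Cytokine and chemokine mRNAs were low in resting cells and several rose steeply. Of 21 cytokines measured 14 rose, Il16 fell (-0.44 ± 0.07) and 6 did not pass the test, with a median log2 fold change of 1.91, and of 9 chemokines 6 rose and 3 did not pass the test, with a median of 1.92. The other 7 of 16 chemokines did not pass the filter, and genes this low can pass it through the group where they are high, so these counts are a description only. Il6, a driver of plasma cell and T helper responses, was at 0.192, 0.0390 and 0.299 CPM and 3.13, 8.03 and 8.19 CPM (5.25 ± 0.53, adjusted p = 3.38e-07), with no overlap, and its change was 4.67 without the second and 5.97 without the third resting library. Tnf went from 3.13, 5.57 and 4.73 CPM to 47.5, 50.9 and 43.0 CPM (3.36 ± 0.15, adjusted p = 1.05e-10). Ebi3, the shared subunit of IL-27 and IL-35, went from 5.43, 6.39 and 4.78 CPM to 60.3, 64.7 and 34.6 CPM (3.26 ± 0.25, adjusted p = 2.52e-08). Il12b (2.90 ± 0.48), Il1b (2.81 ± 0.41), Lta (2.33 ± 0.14), which encodes lymphotoxin, and Il10 (2.19 ± 0.23), the anti-inflammatory product of regulatory B cells, rose as well. The T cell attractant Ccl22 rose from 10.8, 10.6 and 5.48 CPM to 140.1, 141 and 84.5 CPM (3.77 ± 0.41, adjusted p = 8.18e-07). Ccl3, Ccl4 and Ccl5 rose by 2.29 ± 0.31, 1.92 ± 0.26 and 2.21 ± 0.24. With at least 10 counts required in each library, 14 cytokines were tested and 7 of them rose, against 3975 of all 12230 genes tested that way.

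On the cell surface, activation and costimulation genes rose in 16 of 24 cases, 4 fell and 4 did not pass the test (median log2 fold change 0.76). Cd83, a marker of activation that stabilizes MHC class II, was at 197, 311 and 319 CPM and 1620.0, 1884 and 1813 CPM (2.68 ± 0.16, adjusted p = 3.19e-09). Il2ra, the high-affinity IL-2 receptor chain, rose by 3.12 ± 0.20, the adhesion ligand Icam1 by 2.51 ± 0.10, the early marker Cd69 by 2.39 ± 0.16, the death receptor Fas by 2.25 ± 0.17 and the hyaluronan receptor Cd44 by 2.15 ± 0.19. Cd40, the receptor for T cell help, was nearly the same in each LPS library, at 292, 295 and 291 CPM against 83.1, 101 and 94.3 CPM at rest (1.65 ± 0.15, adjusted p = 1.53e-07). The T cell costimulators differed. Cd80 rose from 1.85, 1.95 and 1.84 CPM to 5.00, 8.71 and 7.59 CPM (1.91 ± 0.20, adjusted p = 4.71e-07). Cd86, at 51.2, 99.4 and 135 CPM and 90.0, 161 and 221 CPM, overlapped between the conditions (0.72 ± 0.40, adjusted p = 0.129). It was higher with LPS within each replicate number, and with the number as a block its adjusted p was 1.84e-06. Cd38, an ectoenzyme of resting B cells, and Cd55, a complement inhibitor, fell (-1.68 ± 0.11 and -1.13 ± 0.11).

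Receptors that direct B cell traffic were divided, with 5 of 21 higher, 9 lower and 7 not passing the test (median log2 fold change -0.51). S1pr1, whose ligand draws lymphocytes out of lymphoid organs, fell from 424, 405 and 495 CPM to 80.8, 59.4 and 111 CPM (-2.40 ± 0.23, adjusted p = 1.87e-07). S1pr4 fell from 239.7, 217 and 184 CPM to 52.0, 37.6 and 49.9 CPM (-2.20 ± 0.14, adjusted p = 4.24e-09). Klf2, the transcription factor that maintains S1pr1 in lymphocytes, fell from 437, 399 and 346 CPM to 111, 89.7 and 123 CPM (-1.87 ± 0.17, adjusted p = 1.34e-07). In all 3 genes every LPS library lay far below every resting one. The gut homing integrin chain Itgb7 (-1.69 ± 0.28) and the bone marrow homing receptor Cxcr4 (-1.39 ± 0.21) also fell. The 3 largest rises on the list were those of the LFA-1 chain Itgal (1.47 ± 0.07), the follicle receptor Cxcr5 (1.24 ± 0.13) and the T zone receptor Ccr7 (1.04 ± 0.17).

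Genes of the B cell receptor (BCR) fell more often than they rose, with 17 of 30 lower, 3 higher and 10 not passing the test (median log2 fold change -0.45). The signaling chains Cd79a and Cd79b fell by 0.62 and 0.71 on the log2 scale, and the kinase Btk went from 441, 410.2 and 436 CPM to 200.1, 159 and 217 CPM (-1.16 ± 0.10, adjusted p = 1.08e-07). Inhibitory receptors were among the larger falls, including Pirb (-1.63 ± 0.14), Siglecg (-1.40 ± 0.19) and Cd22, at 1297, 907 and 799.9 CPM and 583, 371 and 389 CPM (-1.16 ± 0.21, adjusted p = 1.60e-04). Fcer2a, the low-affinity IgE receptor CD23, was the exception in size, rising from 618, 694 and 498 CPM to 2147, 1996 and 1466 CPM (1.63 ± 0.16, adjusted p = 3.17e-07). Genes of MHC class II presentation fell more often than they rose. Of 16 measured, 9 fell and 7 did not pass the test (median -0.67), and 1 member passed as higher in 6 of 14 alternatives, the replicate block among them. The falls included the transactivator Ciita (-0.85 ± 0.11), the peptide exchange chain H2-DMa (-0.76 ± 0.15) and Marchf1, the ubiquitin ligase that removes MHC class II and CD86 from the surface, which went from 248, 216 and 242 CPM to 70.4, 55.4 and 75.4 CPM (-1.81 ± 0.11, adjusted p = 3.56e-09).

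Transcription factors of B cell identity and fate moved in both directions, with 12 of 24 lower, 6 higher and 6 not passing the test. Irf4, needed for both germinal center and plasma cell programs, rose from 382, 422 and 420.4 CPM to 1371, 1573 and 1345 CPM (1.81 ± 0.08, adjusted p = 4.92e-11). The related repressors Bhlhe40 and Bhlhe41 went opposite ways, Bhlhe40 from 53.1, 63.5 and 64.6 CPM to 271, 372 and 443 CPM (2.58 ± 0.16, adjusted p = 2.69e-09) and Bhlhe41 from 48.3, 38.3 and 32.3 CPM to 11.1, 6.38 and 8.16 CPM (-2.22 ± 0.23, adjusted p = 5.76e-07). The same held for the inhibitors of E proteins, as Id2 rose by 1.84 ± 0.27 and Id3 fell by 1.66. Bach2, a repressor of plasma cell fate, fell from 806, 646 and 638 CPM to 380.0, 349.8 and 376 CPM (-0.92 ± 0.09, adjusted p = 2.87e-07), and Foxo1 fell by 0.83, whereas Pou2f2 (Oct-2) rose by 0.92 ± 0.10. Genes of plasma cells moved both ways. Of 9 plasma cell markers tested 4 fell, 4 did not pass the test and Slamf7, a surface receptor of the SLAM family, rose (0.79 ± 0.18). Prdm1 (Blimp-1) fell by 0.55 (adjusted p = 0.0046), Xbp1 fell by 0.35 (adjusted p = 0.011, and 0.0696 without the second LPS library or 0.073 without the third resting library), and the plasma cell surface proteoglycan Sdc1, CD138, fell from 69.8, 71.1 and 43.1 CPM to 12.4, 10.8 and 8.87 CPM (-2.52 ± 0.20, adjusted p = 3.47e-08).

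Many quiescence genes fell, while of 26 genes of G1 and the Myc network 12 rose, 9 fell and 5 did not pass the test. Of 27 quiescence factors 19 fell, 2 rose and 6 did not pass the test (median log2 fold change -0.84). Those that rose were the mRNA decay factor Zfp36l1 (0.81 ± 0.09) and the proapoptotic gene Bcl2l11, BIM (0.65 ± 0.14). With Klf2 the largest falls were Pik3ip1, an inhibitor of PI3K (-1.84 ± 0.19), Ccng2, an atypical cyclin (-1.78 ± 0.13), and the stress sensor Sesn1, at 209.5, 208 and 190.4 CPM and 93.2, 82.0 and 94.4 CPM (-1.17 ± 0.07, adjusted p = 2.93e-09), and the CDK inhibitor Cdkn1b (p27) fell by 1.14. Ccnd2, the D-type cyclin B cells use to leave G0, rose from 83.5, 72.3 and 54.1 CPM to 1238, 1260.0 and 772 CPM (3.96 ± 0.20, adjusted p = 6.10e-10). Myc, which drives growth and cell cycle entry, rose from 77.7, 126 and 96.1 CPM to 872, 1036 and 702 CPM (3.12 ± 0.20, adjusted p = 3.57e-09). Cdk6 rose by 1.75 ± 0.19, Ccnd3 fell by 0.55, and the MYC antagonists Mxd3 and Mxd4 fell (-2.30 ± 0.30 and -2.06 ± 0.17). Genes of DNA replication and mitosis, which act after G1, stayed close to resting levels as a list, with 10 of 35 higher, 4 lower and 21 not passing the test and a median of 0.03. The largest changes there were Orc1 (1.03 ± 0.16), which licenses replication origins, and Aurkb (-0.92 ± 0.16), a mitotic kinase. In the BCL2 family 8 of 15 rose, 2 fell and 5 did not pass the test, led by the survival gene Bcl2l1 (BCL-XL), at 13.7, 15.7 and 11.7 CPM and 207, 225 and 134 CPM (3.78 ± 0.17, adjusted p = 1.66e-10), and by the Bcl2a1 copies, between which reads cannot be assigned with certainty. Of 24 genes of SOCS and cytokine signaling 12 rose, 3 fell and 9 did not pass the test. Kinases that act below cytokine receptors rose, Pim1 from 105, 144 and 123 CPM to 573, 684 and 606 CPM (2.32 ± 0.13, adjusted p = 1.70e-09) and Pim2 by 1.75 ± 0.30, and so did the feedback inhibitor Socs3 (1.27 ± 0.32).

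Growth genes rose most uniformly. All 57 measured genes of ribosome biogenesis and the nucleolus rose, 48 of them by a log2 fold change over 1, against 31.2% and 7.84% of tested genes, and their changes lay between 0.18 and 2.54 with a median of 1.41. Rrp1b, a nucleolar protein, had the highest, from 29.1, 38.6 and 36.0 CPM to 209, 235 and 159 CPM (2.54 ± 0.16, adjusted p = 3.19e-09). Nop2, an rRNA methyltransferase, went from 80.7, 108 and 96.7 CPM to 308, 369.7 and 253 CPM (1.70 ± 0.12, adjusted p = 1.39e-08), Ncl, the abundant nucleolar protein nucleolin, from 967, 1251 and 1259 CPM to 3050.0, 3736 and 2936 CPM, and the nucleolar GTPase Gnl3 rose by 2.05 ± 0.13. Of 20 cytosolic tRNA synthetases 18 rose (median 1.10), as did 33 of 37 genes of mitochondrial import and proteostasis (median 0.73), among them the import receptor Chchd4 (1.82 ± 0.13) and the chaperonin Hspd1 (1.52 ± 0.14). The proteasome rose in 32 of 37 genes but by less, with a median of 0.52, a maximum in its activator subunit Psme2 (1.34 ± 0.08), and falls in Psmb8, Psmb9 and Psmb10 (-0.26 ± 0.08), the catalytic subunits of the immunoproteasome. Psmb10 lost its call with only the 6 samples compared (adjusted p = 0.0736), without the second LPS library (0.0607) and without the second resting library (0.0578).

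Metabolic genes rose selectively. In amino acid transport, serine and polyamine synthesis 20 of 25 rose, 1 fell and 4 did not pass the test (median 1.01), with Slc7a5, the leucine transporter chain, at 81.3, 160.4 and 157 CPM and 538, 794 and 586 CPM (2.26 ± 0.24, adjusted p = 6.80e-07), and Srm, spermidine synthase, at 38.7, 57.9 and 45.5 CPM and 244, 287 and 187 CPM (2.33 ± 0.16, adjusted p = 6.56e-09). Odc1, the first enzyme of polyamine synthesis, rose by 1.71 ± 0.20 and the folate enzyme Shmt1 by 2.01 ± 0.17. Of the glycolysis genes, 11 of 23 rose, 6 fell and 6 did not pass the test, yet hexokinase Hk2 went from 18.2, 26.2 and 21.7 CPM to 131, 166 and 110.0 CPM (2.61 ± 0.19, adjusted p = 1.03e-08), the lactate transporter Slc16a1 rose by 2.12 ± 0.14 and Ldha by 1.01 ± 0.11. In cholesterol metabolism 17 of 28 rose, with the synthesis enzyme Sqle highest (1.38 ± 0.10), while genes of efflux and of LDL receptor removal fell, namely Apoe, from 952, 1225 and 1174 CPM to 356, 314 and 434 CPM (-1.60 ± 0.16, adjusted p = 3.83e-07), Abca1 (-0.95 ± 0.24) and Mylip (-1.40 ± 0.24). Of 29 genes of ER folding and the unfolded protein response 19 rose, 3 fell and 7 did not pass the test. The largest rises were targets of ATF4, namely Chac1, at 2.68, 6.35 and 7.17 CPM and 19.8, 41.9 and 33.5 CPM (2.52 ± 0.35, adjusted p = 9.23e-06), Trib3 (2.18 ± 0.33) and Asns (2.01 ± 0.29), with Atf4 itself rising by 1.05 ± 0.11 and the chaperone Hspa5 (BiP) by 1.08 ± 0.08. Eif2ak3, the ER stress kinase PERK, fell by 1.39.

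**Figure D3:**
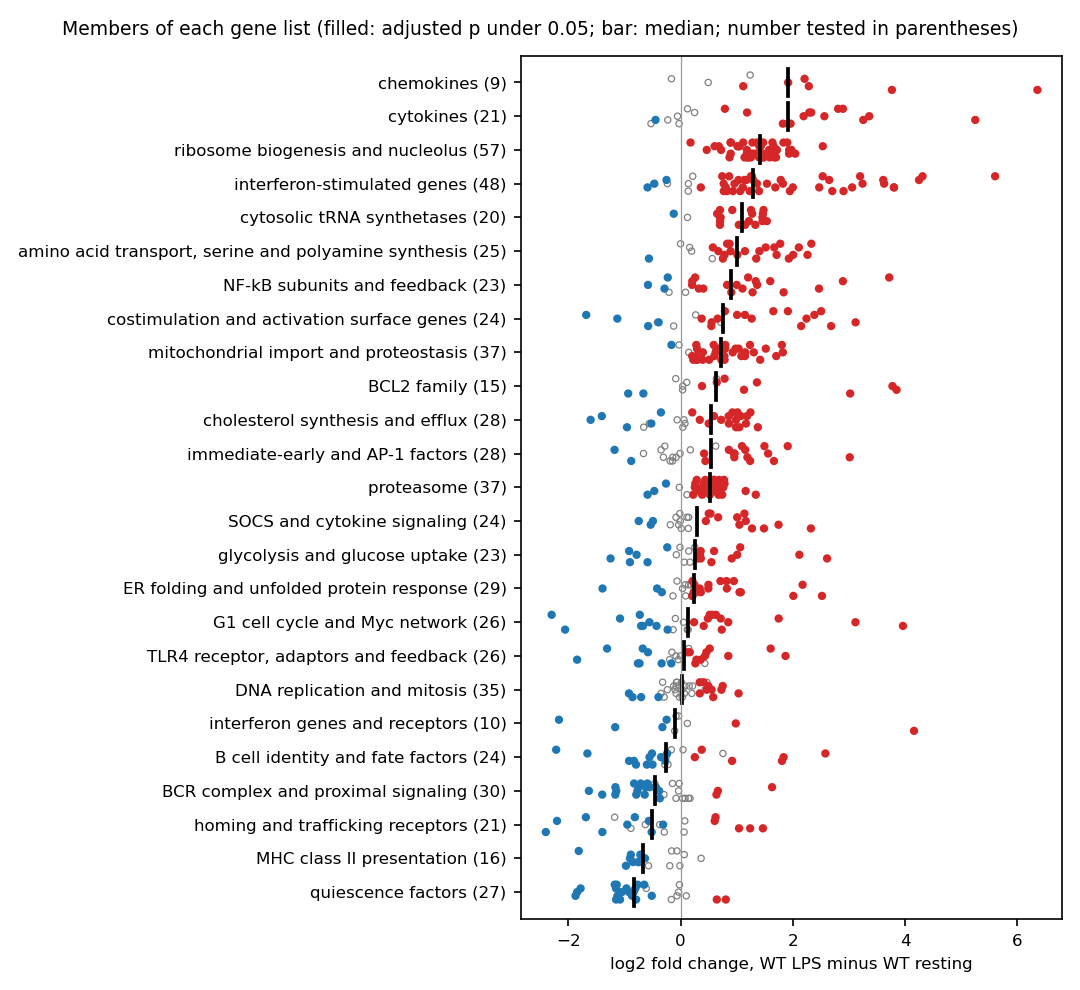
Log2 fold change, WT LPS minus WT resting (x axis), of each tested member of 25 gene lists (y axis, number tested in parentheses), red for genes that rose, blue for genes that fell, open circles for genes that did not pass the test and a black bar for the list's median. All 57 ribosome biogenesis genes lie above 0, while 19 of 27 quiescence factors are filled blue.

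Large changes also came from genes outside these pathways, since 57 of the 192 genes that rose past the study's thresholds (29.7%) and 5 of the 63 that fell (7.94%) were on any of the 25 lists. The lists held 659 of the 14161 tested genes and were chosen with earlier results of these data known. Mgll, which hydrolyses monoacylglycerol and the endocannabinoid 2-AG, was at 3.64, 3.04 and 1.34 CPM and 56.6, 42.7 and 27.4 CPM (4.00 ± 0.31, adjusted p = 2.49e-08). Zbtb46, better known as a dendritic cell factor, rose by 2.87 ± 0.19. Among genes with a mean of at least 10 CPM, the largest fall was that of B3gnt8, a glycosyltransferase that extends N-glycans, from 70.4, 54.5 and 53.6 CPM to 9.94, 5.00 and 8.48 CPM (-2.94 ± 0.24, adjusted p = 4.88e-08). Next came a gene with no symbol in the table used, and then the cytolinker Ppl (-2.53 ± 0.37, and -3.23 without the third LPS library), Sdc1, the orphan receptor Gpr146 (-2.48 ± 0.24), S1pr1, the adhesion molecule Ceacam1 (-2.33 ± 0.31), the IgG recycling receptor Fcgrt (-2.29 ± 0.22), Spns2 (-2.25 ± 0.26), which exports the ligand of S1pr1, and the acid phosphatase Acp5 (-2.25 ± 0.21). The falls with the smallest p were more modest and tighter, with Pla2g15, a lysosomal phospholipase, at 31.4, 32.7 and 29.3 CPM and 12.0, 11.2 and 12.2 CPM (-1.39 ± 0.08, adjusted p = 1.14e-09). Abhd17b, a depalmitoylase, fell by 1.08, Trim59 by 1.28 and Tnfrsf26, of the TNF receptor family, by 1.81.

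Markers of other cell types moved in part with LPS, and a lower summed level cannot tell fewer cells of a type from less RNA per cell. The summed level of 15 macrophage and monocyte markers was 37.0 to 62.1 CPM in resting and 26.2 to 29.8 CPM in LPS libraries, with none of them at 0 in all 6. Lyz2 went from 3.26, 4.95 and 6.82 CPM to 1.03, 1.55 and 2.47 CPM (-1.59 ± 0.36, adjusted p = 9.58e-04), Csf1r from 2.49, 2.53 and 3.39 CPM to 0.355, 0.305 and 0.429 CPM, and Adgre1, which overlapped between conditions, from 38.0, 18.6 and 9.11 CPM to 14.5, 8.23 and 6.26 CPM (-1.16 ± 0.46, adjusted p = 0.0362). The call of Adgre1 was lost without the first resting library (-0.54, adjusted p = 0.318). Of 9 tested, 5 fell, 3 did not pass the test and Cd68, a lysosomal glycoprotein, rose (0.45 ± 0.16), a call lost without the second or the third LPS or the first resting library (adjusted p = 0.0715 to 0.13). The T cell list summed to 151 to 183 CPM at rest and to 59.9 to 86.1 CPM with LPS, most of it in Cd2, which went from 115, 98.3 and 96.3 CPM to 32.3, 21.3 and 32.1 CPM, and in Lck, at 59.3, 45.8 and 45.6 CPM and 44.5, 30.7 and 35.6 CPM (-0.44 ± 0.25, adjusted p = 0.136, and 2.57e-04 with the replicate block), while Cd3g had 0 counts in all 6 libraries. Of 7 T cell markers tested 2 fell, 3 did not pass the test, and Cd8a (1.07 ± 0.33) and the IL-7 receptor chain Il7r (0.84 ± 0.34) rose. Cd8a lost its call without the second LPS library (adjusted p = 0.0511), and Il7r without the first or second LPS or the second or the third resting library (0.0702 to 0.146). Dendritic cell markers summed to 378 to 523 CPM and 735 to 1094 CPM, mostly in Ccr7. NK cell (2.45 to 4.15 and 2.19 to 2.97 CPM), erythroid and platelet (8.96 to 12.5 and 8.02 to 10.3 CPM) and plasma cell markers (701 to 856 and 637 to 754 CPM) overlapped between the conditions. The part of these cells in the changes of cytokine and chemokine mRNA was not tested.

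The direct contrast with anti-IgM, which crosslinks the BCR, asked which genes differed between the stimulations. Between WT cells given LPS and WT cells given anti-IgM, 4590 genes differed at an adjusted p under 0.05 (32.4%), 2468 of them higher with LPS (17.4%) and 2122 lower (15.0%). With the replicate number as a block 6056 genes differed, 3167 higher with LPS and 2889 lower. The values below come from the fit without the block. Of the 192 genes that rose past the study's thresholds with LPS, 129 were higher with LPS than with anti-IgM, 5 were lower and 58 did not pass the test. For the 63 genes that fell, 21 were lower with LPS, 6 were higher and 36 did not pass. These 192 and 63 genes were chosen with the same LPS libraries. That choice favors a further difference in the same direction, so these counts are a description only. Both stimulations share the resting libraries, so their changes are given side by side only. All 48 interferon-stimulated genes were higher with LPS than with anti-IgM, where their median log2 fold change against resting cells was -1.11. With anti-IgM Ifit1 was at 0.199, 0.341 and 1.42 CPM and Ifit3 at 0.199, 0.0757 and 1.06 CPM, and LPS exceeded anti-IgM by 5.75 ± 0.41 and 5.64 ± 0.53. In the NF-kB list 18 of 23 genes were higher with LPS and 3 lower. Bcl3, at 30.3, 27.1 and 31.3 CPM with anti-IgM against 198, 202 and 199 CPM with LPS, differed by 2.76 ± 0.12 (adjusted p = 2.51e-11). Cd40, at 36.1, 47.5 and 61.4 CPM with anti-IgM, differed by 2.60 ± 0.16 (adjusted p = 2.21e-09).

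In the contrast with anti-IgM, immediate-early genes were more often lower than higher with LPS. Of 28 measured, 14 were lower and 7 higher with LPS than with anti-IgM, and against resting cells LPS raised 15, lowered 2 and left 11 not passing the test. Egr2, a target of calcium and ERK signaling, was at 23.6, 34.8 and 30.8 CPM in resting cells, 12.2, 17.4 and 19.1 CPM with LPS and 605, 494 and 514 CPM with anti-IgM, so that it was lowest with LPS and highest with anti-IgM. Its log2 difference between the stimulations was -5.05 ± 0.20 (adjusted p = 1.53e-11), and its change with LPS was -0.88 ± 0.18 (adjusted p = 5.01e-04). Egr1 was at 47.0, 42.6 and 29.2 CPM, 77.5, 62.1 and 43.3 CPM and 390.3, 196 and 169.5 CPM in the same order, with a change with LPS of 0.63 ± 0.32, adjusted p = 0.0988, or an adjusted p of 0.00345 with the replicate block. Egr3 and the orphan nuclear receptor Nr4a2 also did not pass the test with LPS (adjusted p = 0.22 and 0.739, and for Egr3 0.0377 with the replicate block), and were lower than with anti-IgM by 2.89 and 3.76. Dusp6, the ERK phosphatase, fell by 1.18 with LPS. Members that rose with LPS included Batf, an AP-1 factor of class switching (3.02 ± 0.27), and Atf3 (1.66 ± 0.36). Jun rose as well, from 23.9, 25.4 and 26.5 CPM to 88.8, 108 and 88.2 CPM (1.91 ± 0.16, adjusted p = 4.20e-08). Jun was higher with LPS than with anti-IgM by 2.14 ± 0.16. Batf also lay higher with LPS, at 97.64, 100.4 and 51.99 CPM against 20.06, 18.74 and 11.29 CPM with anti-IgM. For Atf3 every LPS library lay below every anti-IgM library.

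**Figure D4:**
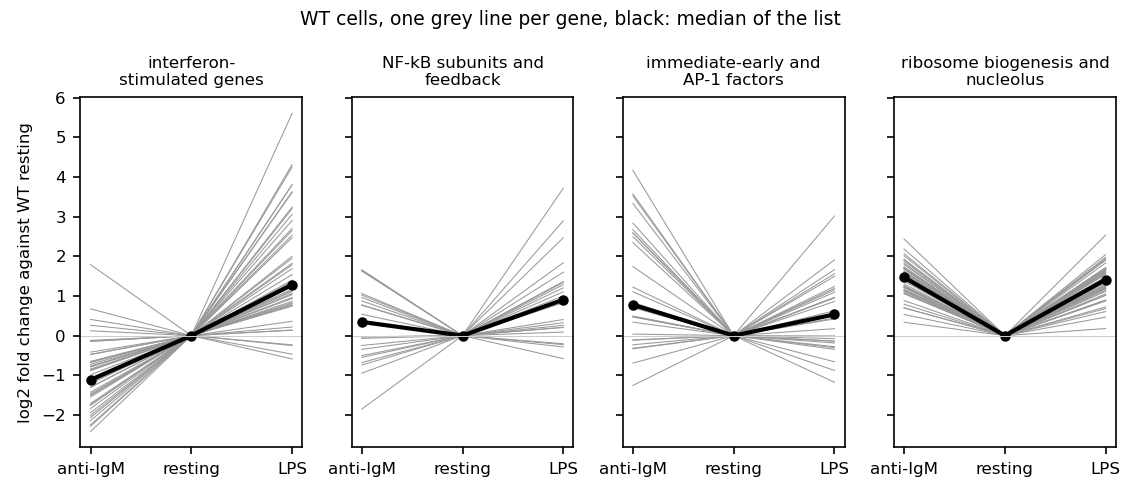
Log2 fold change against WT resting (y axis) with anti-IgM, at rest (0 by definition) and with LPS for the members of 4 gene lists in WT cells, 1 grey line per gene and black for the median. Medians are -1.11 with anti-IgM and 1.28 with LPS for interferon-stimulated genes, and 1.47 and 1.41 for ribosome biogenesis.

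Few growth genes passed the direct contrast without the replicate block. Their counts with the block, which called 6056 rather than 4590 genes in all, are not given, so a gene that did not pass may still differ. Among 57 ribosome biogenesis genes 1 was higher and 7 lower with LPS than with anti-IgM, and their median difference was -0.03. Myc was at 872, 1036 and 702 CPM with LPS and 822, 1021 and 919.8 CPM with anti-IgM, a log2 difference of -0.08 ± 0.18 (adjusted p = 0.774), whereas Ccnd2 was higher with LPS by 2.77 ± 0.19 (adjusted p = 7.90e-09). At the study's thresholds 355 genes differed between the stimulations (2.51%), 198 of them higher with LPS and 157 lower. The same LPS libraries enter both choices of the next count, which favors the LPS side, so it is a description only. Of the 355 genes, 81 also changed with LPS against resting cells at these thresholds, 78 of them higher with LPS. The 3 lower ones were Lpl, lipoprotein lipase, at 0.767, 0.623 and 0.996 CPM at rest and 0.0323, 0 and 0.0358 CPM with LPS, Tgfb3, at 5.05, 4.63 and 7.02 CPM and 0.646, 0.737 and 1.47 CPM, and the macrophage growth factor receptor Csf1r. Cxcl10 was higher with LPS than with anti-IgM by 6.89 ± 0.37 (adjusted p = 3.70e-10). Ifna4 and the renin genes Ren1 and Ren2, whose reads cannot be told apart with certainty, passed the same thresholds but had 0 counts in all anti-IgM libraries, so no size is given for them.

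The same treatment in KO cells gave a second set of 6 libraries, in which 30.6% of tested genes rose and 30.2% fell, or 1.22% and 0.523% at the study's thresholds. Ubqln1 itself was at 91.4 to 128 CPM in the 9 KO and 229 to 339 CPM in the 9 WT libraries, counted over the whole gene, with no overlap. Of the 192 genes that rose past the study's thresholds in WT cells, 185 rose in KO cells and 139 passed the same thresholds there, with a median log2 fold change of 2.41 against 2.60 in WT. Of the 63 that fell, 62 fell in KO cells and 42 passed the thresholds, with medians of -2.26 in KO and -2.30 in WT. Both sets were chosen by their WT values, which favors larger changes in WT, so these counts and medians are a description only. The difference between the responses reached an adjusted p under 0.05 for 0 of 14161 genes (0.0%) with edgeR, limma with voom and DESeq2, and 220, 215 and 180 had an unadjusted p under 0.05 (1.55% for edgeR). With the replicate block 0 genes passed and 430 had an unadjusted p under 0.05.

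Interferon-stimulated genes had a lower fitted LPS response in KO than in WT cells in 47 of 48 cases, against 49.6% of all tested genes, and 35 of the 48 had an unadjusted p under 0.05, but none passed the adjusted threshold. Their median log2 fold change was 0.56 in KO and 1.28 in WT cells, and 26 rose and 6 fell in KO. The responses started from different resting levels. The median level over the list was 19.9 to 20.4 CPM in resting KO libraries and 13.5 to 17.6 CPM in resting WT libraries. With LPS it was 23.3 to 31.5 CPM in KO and 31.4 to 50.3 CPM in WT libraries. The cause of these differences was not tested. Rsad2 was at 1.42, 1.21 and 1.47 CPM in resting KO cells and 8.73, 5.79 and 5.92 CPM with LPS, and Irf7 at 15.9, 19.9 and 20.7 CPM and 38.3, 22.9 and 27.0 CPM. Their KO minus WT differences in response were -1.94 ± 0.45 and -1.37 ± 0.35, each with an adjusted p of 1 (edgeR). Without the second WT LPS library, the lowest for most of these genes, 10 genes passed at an adjusted p under 0.05, all with a smaller response in KO. The 4 on the interferon list were Rsad2, Irf7, Dhx58 and Slfn5. Leaving out the lowest WT LPS library favors a larger response in WT, so these calls are a description only. The second KO LPS library, whose median over the list was the lowest of the KO LPS libraries (23.3 CPM), was kept. Leaving out any other single LPS or resting library gave 0 genes. With the replicate block 40 of the 48 had an unadjusted p under 0.05, and the smallest adjusted p on the list was 0.145. That block treated same-numbered WT and KO libraries as belonging together, which was not checked.

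**Figure D5:**
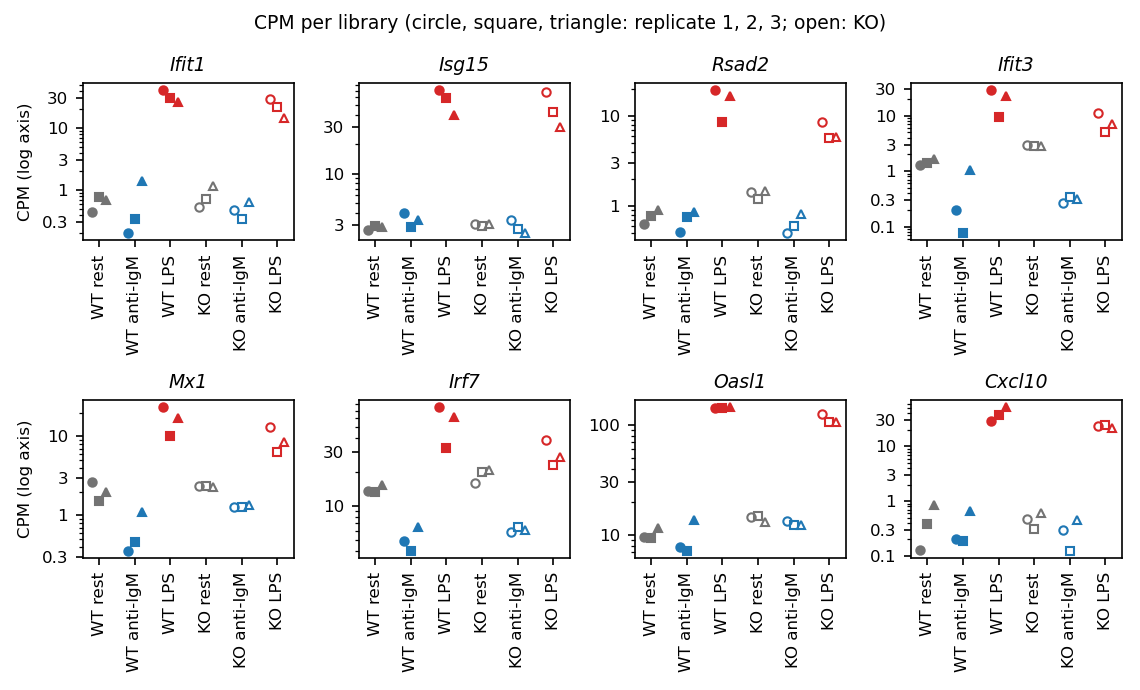
CPM on a log axis of 8 genes induced by interferon in each of the 18 libraries, filled for WT and open for KO, grey for resting, blue for anti-IgM and red for LPS, with circles, squares and triangles for replicates 1, 2 and 3. LPS libraries lie above the resting libraries of their genotype in each of the 8 genes, and the WT LPS libraries of Rsad2 and Irf7 spread from 8.59 to 19.6 and from 32.5 to 75.1 CPM.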

How the data were processed

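RNA-seq was read from the gene tables of 18 libraries, 3 per genotype and condition. Per the labels, GSNAP was used for alignment and GRCm38 as the genome, and the authors deposited a raw count, a width and an RPKM value per gene, where RPKM is the count per kilobase of width and per library total. The counting program and annotation are not given in the sources used here, nor whether reads were counted by strand, so overlapping and antisense genes cannot be told apart. RPKM values enter no test.

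The deposited counts were fitted over all 18 libraries with edgeR 4.0.16 (R 4.3.3), with TMM factors, the filterByExpr filter, 1 term per group, the quasi-likelihood test and Benjamini-Hochberg adjustment. Of 28096 genes 14161 passed the filter. SEs are the log2 fold change divided by the square root of F. limma 3.58.1 with voom, DESeq2 1.42.0, other factors and filters, a replicate block, thinned libraries and leaving out single libraries were the alternatives. Gene symbols came from RefSeq (GRCm38.p6) for 89.1% of genes, which held 95.8% to 96.2% of the counts. The fit was tested on simulated counts with few changed genes and no differences between replicate numbers, a simpler setting than these libraries.

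Named genes were the 10 largest changes each way at the study's thresholds with a mean of at least 10 CPM and no overlap between groups, the 5 smallest p-values each way, the 5 largest differences from anti-IgM, and members of the gene lists by size or role. Dhx58 and Slfn5 were list members named for their values. Some genes that this rule selects are not reported here. The gene lists and comparisons were chosen with earlier results of these data known. Replicate numbers come from the labels, with the sample of each group that carries none taken as replicate 1, and same-numbered resting and LPS libraries deviated together from their group means (correlations of 0.516, 0.357 and 0.462 across genes). The numbers were therefore taken to pair the WT resting and LPS samples. The block used the same number terms for all 18 libraries. It thus also joined same-numbered anti-IgM and KO libraries, whose pairing was not checked. A fit with the number as a block is given where it changes the call of a named gene between LPS and resting WT cells, and for some counts. It also moved the counts of some lists, such as BCR genes that rose, which were 3 without and 5 with the block. All other counts, SEs and p-values come from the fit without it. P-values set each change against the spread of samples within groups, estimated over all 18 libraries with information shared across genes. In the fit without the block, differences between replicate numbers are part of that spread.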

Additional observations from a re-analysis of the deposited data

How the results depend on the processing

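Over 14 alternatives the count of genes that differed between LPS and resting WT cells at an adjusted p under 0.05 lay between 7509, with only the 6 samples compared, and 9626, with the replicate block, against 8672. Leaving out single libraries gave 7576 to 8520 genes, and 188 to 297 at the study's thresholds, against 255, of which 40 to 95 fell against 63. Requiring at least 10 counts in every sample tested 12230 genes and lowered the counts at the study's thresholds to 125 for LPS in WT, 197 for LPS against anti-IgM, 124 for LPS in KO and 346 for anti-IgM in WT. The difference between the KO and WT responses was called for 0 to 10 genes when single libraries were left out, 10 of them without the second WT LPS library. With the replicate block 275 genes passed the study's thresholds with LPS, and the paired fit added calls for Cd86, Egr1, Egr3 and Lck and changed no other call among the named genes. Calls of Cd86 and Egr1 also appeared without the first LPS library (adjusted p = 0.0433 for Cd86) or without the third (0.0457 for Egr1), and those of Egr1 and Lck with only the 6 samples compared. Tap1 lost its call without the second LPS, the first resting or the third resting library, with adjusted p of 0.0507 to 0.0985, Psmb10 in 3 alternatives (0.0578 to 0.0736) and Adgre1 in 5, those without the second or the third LPS library among them (0.106 and 0.121). With thinned libraries Cd8a and Il7r lost their calls (0.0536 and 0.0534), as did Il7r with voom (0.135) and Cd68 with only the 6 samples compared (0.0598). Nr4a2, which did not pass the test, lay between -0.82 and 0.31 on the log2 scale as single libraries were left out. The cause of these changes was not tested. Counts of all LPS libraries exceed those of resting ones, and genes with few counts, such as Ifna4, Il6 and Lpl, have the least certain changes. P-values are those of edgeR, except the one given for Il7r with voom.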
